A study of Glycine max with 6 samples.

Results

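Clones of the soybean ferritin genes H-1, SFERH-2 and SFERH-4 and of the divalent metal transporter gene DMT1 were followed on spotted cDNA arrays hybridized with root RNA. A clone was taken when its row of the deposited value table carried exactly 1 gene symbol and that symbol was 1 of these 4, out of 526 genes named in this way. The 4 genes were represented by 7 of the 1091 named clones, each printed as 1 spot. H-1, SFERH-4 and DMT1 had 2 clones each and SFERH-2 had 1. RefSeq lists H-1 also as SFerH-1, SFERH-2 as Fer1-1, and DMT1 as GmDMT1 and GmNRAMP2b.

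Ferritin is an iron storage protein whose subunits assemble into a hollow shell that keeps iron soluble and out of reach of reactions that make oxygen radicals. Plant ferritin subunits are imported into plastids, and plant ferritin transcripts are known to accumulate when iron is in excess. DMT1 belongs to the NRAMP family of divalent metal transporters, and the soybean protein has been described on the symbiosome membrane of root nodules, where it can carry ferrous iron.

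Roots of Clark, which is Fe-efficient, were compared with roots of IsoClark, an Fe-inefficient near-isogenic line made by repeated backcrossing to Clark, and both lines had been grown in hydroponics with sufficient Fe. There were 3 biological replicates, each hybridized on 2 arrays, the first with IsoClark in Cy3 and Clark in Cy5 and the other with the dyes exchanged, and each labelling started from 90 ug of RNA. Per the methods, a replicate was pooled root tissue of several plants from a single hydroponic unit, so the replicate spread holds differences between pools and noise between arrays. Each genotype was represented by 1 line. Values are log2 ratios of IsoClark over Clark, so a value above 0 means a brighter spot in IsoClark, and replicate values are means over the usable arrays of a dye pair. A spot was usable unless the image program had marked it as poor. The direction of each ratio follows the dye given in the label field, and for the replicate 2 array with IsoClark in Cy5 the text of the labelling protocol names the opposite dyes.

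Over the whole array, 13430 clones were tested with limma, and 0 passed a Benjamini-Hochberg adjusted p of 0.05. The smallest adjusted p was 0.796, and an unadjusted limma p under 0.05 was reached by 743 clones, or 5.53%. The absolute log2 ratio had a median of 0.12, and its 95th percentile was 0.39. The 95% limma interval of a clone reached a median of 0.33 to either side of its mean. Between 18.9% and 44.2% of the cDNA spots of an array were marked as poor, and only 19.5% of the tested clones had all 6 spots usable. Named clones of the isoflavone synthases IFS1 and IFS2, fixed as root markers, lay above background on all 6 arrays, and the 3 of these clones that were tested had log2 ratios from -0.33 to -0.002 with a median of -0.30. The part of this list in the results for the member clones was not tested. The clone of the nodule gene N-36A lay above background on 4 arrays, and no other listed nodule marker had a named clone. Photosynthetic markers lay above background on a median of 6 arrays, with log2 ratios from -0.20 to 0.23. Seed markers, 13 clones of 7 genes, also lay above background on a median of 6 arrays, and the 9 tested had log2 ratios from -0.25 to 0.80. Fewer cells of a type and less RNA per cell cannot be told apart in such samples.

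The first question was whether the transcripts of iron storage and transport differed between the lines while iron was not limiting. Of the 7 clones, 5 could be tested, and 0 of them passed the adjusted threshold, beside 0% of all clones tested. H-1 (0.18 ± 0.11) and 1 SFERH-4 clone (0.17 ± 0.03) lay on the IsoClark side, while SFERH-2 (-0.30 ± 0.28), DMT1 (-0.25 ± 0.18) and the other SFERH-4 clone (-0.05 ± 0.04) lay on the Clark side (log2 ratio, mean ± SD, n = 3). None of the 5 reached an unadjusted limma p of 0.05 in the setting reported here. SFERH-2 did under some alternatives, at the lowest with 0.0433 without replicate 3 (adjusted limma p of 0.791). DMT1 did in the fits with a dye term described below. Of the 5, 0 had a 2-fold mean, beside 0.0298% of all clones. The 95% intervals of all 5 lay within 2-fold in either direction, as did those of 97.9% of all clones. The other 2 clones, 1 of H-1 and 1 of DMT1, were not usable in all 3 replicates and were not tested. The median log2 ratio of the 5 clones was -0.05, beside 0.003 over all clones tested.

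**Figure D1:**
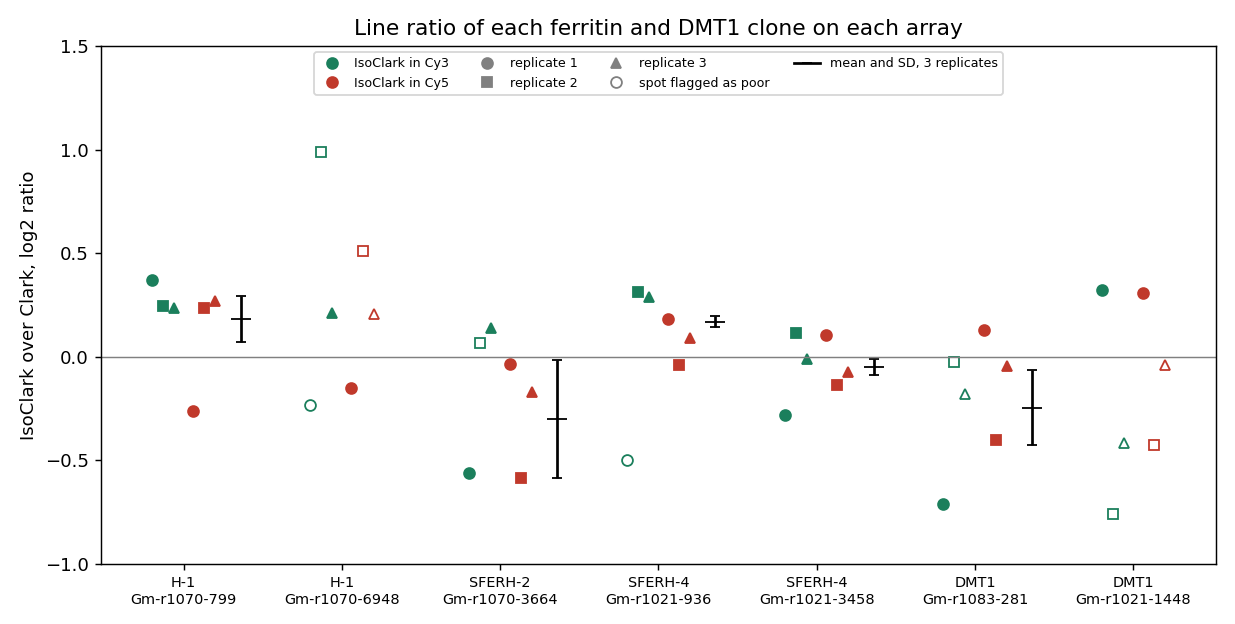
Log2 ratio of IsoClark over Clark (vertical axis) for each of the 7 ferritin and DMT1 clones (horizontal axis) on each of the 6 arrays, coloured by the dye that IsoClark carried, with the replicate given by the marker shape. Open markers are spots marked as poor, whose ratios come from a fit that ignored the marks, and black bars are the mean ± SD of the 3 replicates for the 5 tested clones. All 5 tested clones had usable arrays on either side of 0.

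The spots of 5 clones lay above background in both lines on all 6 arrays, and those of the H-1 clones did so in each line on 5 arrays. Most spots did so, as between 77.0% and 98.7% of all cDNA spots lay above background in a channel of an array. Signals are given over the local background of the spot, over 6 arrays, and spots marked as poor are included. Each line was in Cy3 on 3 arrays and in Cy5 on the other 3. H-1 clone Gm-r1070-799 ranged from 6.20 to 26.3 times background in IsoClark (median 9.60) and from 3.52 to 17.7 times in Clark (median 10.4). The second H-1 clone, Gm-r1070-6948, was dim, with 2.00 to 9.42 times in IsoClark (median 4.12) and 2.03 to 9.95 times in Clark (median 2.94). Both upper ends came from spots marked as poor. Its 2 usable spots gave 5.51 and 2.00 times in IsoClark and 3.65 and 2.23 times in Clark. SFERH-2 clone Gm-r1070-3664 ranged from 15.6 to 54.9 times in IsoClark (median 22.4) and from 14.9 to 55.7 times in Clark (median 22.2). The ranges of the lines overlapped for each of these clones. They pool both dyes and unnormalized signal of different arrays, so the overlap does not tell whether the lines differ.

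SFERH-4 clone Gm-r1021-936 gave 4.13 to 15.7 times background in IsoClark (median 7.27) and 4.33 to 10.8 times in Clark (median 5.70). SFERH-4 clone Gm-r1021-3458 gave 12.04 to 40.2 times in IsoClark (median 14.6) and 6.44 to 53.9 times in Clark (median 16.2). The lines overlapped for both SFERH-4 clones. DMT1 clone Gm-r1083-281 gave 8.29 to 63.2 times in IsoClark (median 18.6) and 6.65 to 33.6 times in Clark (median 26.3). DMT1 clone Gm-r1021-1448 gave 5.29 to 63.2 times in IsoClark (median 13.8) and 6.66 to 28.0 times in Clark (median 13.9). Only its 2 spots of replicate 1 were usable, with 13 and 63.2 times in IsoClark and 18.8 and 28.0 times in Clark. The DMT1 ranges overlapped as well, and for these clones too the overlap does not tell whether the lines differ. The brightness of 1 clone was not set against that of another, because spots differ in the cDNA they hold and in the amount printed.

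**Figure D2:**
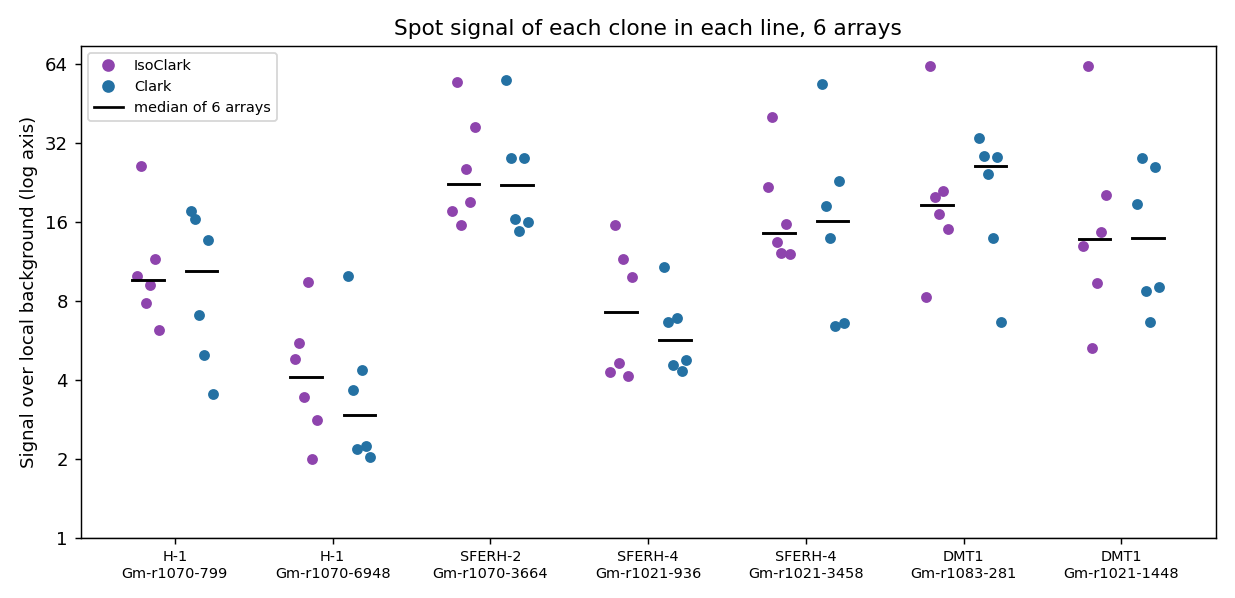
Spot signal over local background (vertical axis, log scale) of each of the 7 clones (horizontal axis) in IsoClark and in Clark, with 1 point per array and a line at the median of 6 arrays. The points of the lines overlap for every clone, as for H-1 clone Gm-r1070-799 with medians of 9.60 in IsoClark and 10.4 in Clark. Both dyes and unnormalized signal are pooled, so the overlap does not tell whether the lines differ. Spots marked as poor are included. Heights of different clones are not to be set against each other.

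Among the storage genes, H-1 clone Gm-r1070-799 was the 1 ferritin spot on the IsoClark side that was usable on all 6 arrays. Its log2 ratio with IsoClark in Cy3 was 0.37, 0.24 and 0.23 in replicates 1, 2 and 3, and with IsoClark in Cy5 it was -0.26, 0.23 and 0.27. The ratio was above 0 on 5 of 6 arrays, and the array that went the other way was that of replicate 1 with IsoClark in Cy5. The replicate values were 0.05, 0.24 and 0.25, with a mean of 0.18 ± 0.11 (SD, n = 3), a 95% limma interval from -0.12 to 0.48 and an adjusted limma p of 0.799. On the linear scale the interval ran from 0.923-fold to 1.39-fold. In absolute size the mean exceeded that of 68.3% of the tested clones. The mean Cy5 over Cy3 log2 ratio of the dye pair was -0.32 for the first replicate and -0.005 and 0.02 for the others, so the arrays of replicate 1 differed by dye more than those of the others. The image program marked the replicate 2 spot with IsoClark in Cy5 as empty, and it was not above background in either line. Without empty-marked spots the mean was also 0.18.

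The dim H-1 clone, Gm-r1070-6948, had only 2 usable spots, with log2 ratios of -0.15 in replicate 1 (IsoClark in Cy5) and 0.21 in replicate 3 (IsoClark in Cy3). The replicate 3 spot was marked as empty. When the marks were ignored, the replicate values were -0.18, 0.75 and 0.21, with a mean of 0.26 ± 0.47 (SD, n = 3), a 95% interval from -0.15 to 0.67 and an adjusted limma p of 0.779 among 17818 clones. The replicate spread was larger than the mean, so this clone did not settle the direction of H-1.

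SFERH-2 had the lowest mean of the ferritin clones. Clone Gm-r1070-3664 had log2 ratios of -0.56 and -0.04 in replicate 1 (IsoClark in Cy3, then in Cy5) and 0.14 and -0.17 in replicate 3. In replicate 2 it had -0.59 with IsoClark in Cy5, and the spot with IsoClark in Cy3 was marked as poor and gave 0.07 when the mark was ignored. The ratio was below 0 on 4 of 5 usable arrays, and the lowest values came from 1 array of replicate 1 and 1 of replicate 2. The replicate values were -0.30, -0.59 and -0.02, with a mean of -0.30 ± 0.28 (SD, n = 3), a 95% limma interval from -0.65 to 0.05 and an adjusted limma p of 0.796. The mean corresponds to 1.23-fold more signal in Clark, and the interval reached 1.57-fold more. In absolute size it exceeded the mean of 88.7% of the tested clones.

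The other clones printed in the block of SFERH-2 were read beside it. The array was printed in 48 blocks, and the median replicate-averaged log2 ratio of a block ran from -0.18 to 0.19 over the blocks. The other clones of the SFERH-2 block had a median of -0.40 on the array of replicate 1 that carried IsoClark in Cy3 and of -0.20 on the array of replicate 2 that carried it in Cy5, the arrays on which SFERH-2 itself had -0.56 and -0.59. In replicate 3 with IsoClark in Cy3, SFERH-2 had 0.14 and the block -0.02. Averaged like the clone, the block stood at -0.15. When each block was normalized on its own (print-tip loess), SFERH-2 had a mean of -0.006. Leaving out replicate 2 gave -0.16 and leaving out replicate 3 gave -0.44.

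The pair of SFERH-4 clones lay on different sides of 0. Clone Gm-r1021-936 had log2 ratios of 0.31 and 0.29 with IsoClark in Cy3 in replicates 2 and 3, and of 0.18, -0.04 and 0.09 with IsoClark in Cy5 in replicates 1, 2 and 3. Its replicate 1 spot with IsoClark in Cy3 was marked as poor and gave -0.50 when the mark was ignored. The ratio was above 0 on 4 of 5 usable arrays. The replicate values of 0.18, 0.14 and 0.19 lay close together, with a mean of 0.17 ± 0.03 (SD, n = 3), a 95% limma interval from -0.12 to 0.46 and an adjusted limma p of 0.801. The other clones of its print block stood at a mean of 0.18, and with print-tip loess this clone had -0.03. When all marks were ignored its mean was 0.04.

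Clone Gm-r1021-3458 of SFERH-4 was usable on all 6 arrays, with log2 ratios of -0.28, 0.11 and -0.01 with IsoClark in Cy3 and of 0.10, -0.14 and -0.07 with IsoClark in Cy5 in replicates 1, 2 and 3. These values lay on either side of 0, with 2 above and 4 below. The replicate values were -0.09, -0.01 and -0.04, with a mean of -0.05 ± 0.04 (SD, n = 3), a 95% limma interval from -0.34 to 0.24 and an adjusted limma p of 0.948. Of the 5 tested clones it had the ratio closest to 0, smaller in size than that of most clones on the array, of which 21.8% were closer to 0. Its print block stood at -0.01.

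Clone Gm-r1021-936 lay above clone Gm-r1021-3458 in 3 of 3 replicates, by 0.27, 0.15 and 0.23 on the log2 scale. The mean difference was 0.22 ± 0.06 (SD, n = 3), with an exact two-sided sign-flip p of 0.25, the smallest that 3 replicates allow. Among 697 pairs of clones that carried the same symbol, over 185 genes, 60.1% differed by less, and the median absolute difference of such a pair was 0.178. With print-tip loess the difference between the SFERH-4 clones was -0.02. Spotted cDNAs can also bind transcripts of close copies, and how far the ferritin clones did so was not tested.

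**Figure D3:**
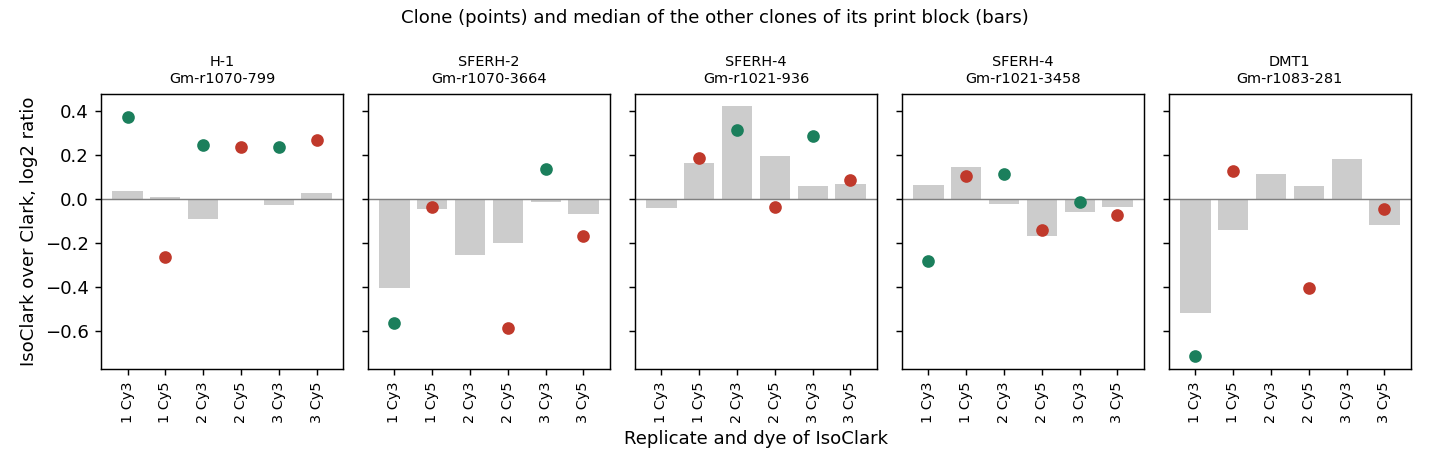
Log2 ratio of IsoClark over Clark (vertical axis) of each tested clone on each array (points, in 1 panel per clone, green for IsoClark in Cy3 and red for IsoClark in Cy5) beside the median of the other clones of its print block on that array (grey bars), by replicate and dye of IsoClark (horizontal axis). The bars follow the points for SFERH-2 and DMT1 in replicate 1 with IsoClark in Cy3 (-0.40 and -0.52), and stay near 0 for H-1.

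The transporter gene DMT1 lay on the Clark side in its better measured clone. Clone Gm-r1083-281 had log2 ratios of -0.71 with IsoClark in Cy3 and 0.13 with IsoClark in Cy5 in replicate 1. With IsoClark in Cy5 it had -0.40 in replicate 2 and -0.05 in replicate 3. The spots with IsoClark in Cy3 of replicates 2 and 3 were marked as poor and gave -0.03 and -0.18 when the marks were ignored. The ratio was below 0 on 3 of 4 usable arrays, and most of the shift came from 1 array in each of replicates 1 and 2.

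The replicate values of this DMT1 clone were -0.29, -0.40 and -0.05, with a mean of -0.25 ± 0.18 (SD, n = 3), a 95% limma interval from -0.56 to 0.07 and an adjusted limma p of 0.796. The mean corresponds to 1.19-fold more signal in Clark, and the interval reached 1.48-fold more. On the array of replicate 1 that carried IsoClark in Cy3, where the clone had -0.71, the other clones of its print block had a median of -0.52. On the array of replicate 2 that carried IsoClark in Cy5, where the clone had -0.40, the block stood at 0.06 and print-tip loess left the clone at -0.40. Averaged like the clone, the block stood at -0.13, and with print-tip loess DMT1 had a mean of -0.09. On single arrays print-tip loess gave -0.14 (IsoClark in Cy3) and 0.21 (IsoClark in Cy5) in replicate 1. It gave 0.08 in replicate 3, so the lowest value was the -0.40 of the replicate 2 array, whose dye labels conflict. A fit of the 6 arrays with a dye term gave -0.41 with the replicate as a block, at an adjusted limma p of 0.769. For this clone that fit held only its 4 usable arrays, 1 with IsoClark in Cy3 (-0.71) and 3 with IsoClark in Cy5 (mean -0.11). The dye effect cancels only in replicate 1, where the mean Cy5 over Cy3 log2 ratio of the pair was 0.42.

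The second DMT1 clone, Gm-r1021-1448, was usable in replicate 1 only, where its log2 ratios were 0.32 with IsoClark in Cy3 and 0.31 with IsoClark in Cy5. In the same replicate the first DMT1 clone averaged -0.29, so the clones differed by 0.60. On the array with IsoClark in Cy3 the print block of the second clone had a median of 0.33, against -0.52 for the block of the first. When the marks were ignored, the second clone had 0.29, -0.59 and -0.23 in the replicates, with a mean of -0.18 ± 0.45 (SD, n = 3), a 95% interval from -0.58 to 0.22 and an adjusted limma p of 0.825. Ignoring the marks in both, the DMT1 clones differed by 0.04 ± 0.51 (exact two-sided sign-flip p of 1, n = 3).

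Set side by side, the 5 tested clones each kept 1 sign over the 3 replicate values, beside 29.1% of all clones tested. In 2 of them all 3 values were above 0, beside 15.8% of all clones, and in 3 all were below 0, beside 13.3%. This count depended on the normalization and on some other choices. It stayed at 5 of 5 without background correction (28.3% of all clones). The dim-spot filter does not enter the ratios, so the 5 of 5 without it (28.8%) was fixed in advance. Keeping only spots above background in both channels also left 5 of 5 (29.9%), but it changed only the H-1 mean, from 0.181 to 0.183. The count was 4 of 5 when spot flags were ignored (29.4%) or empty-marked spots were left out (29.8%). Turning the IsoClark-in-Cy3 array of replicate 3 also gave 4 of 5 (28.7%). With print-tip loess 1 of 5 kept 1 sign, beside 25.0% of all clones, and with median centring of each array 2 of 5 did, beside 24.1%. With the signal median 3 of 5 kept 1 sign (29.3% of all clones), and on arrays with IsoClark in Cy5 alone 1 of 5 did (36.3%). The authors' table gave 2 of 5 as deposited (26.7%) and 3 of 5 with its reverse column turned (22.4%). Turning the replicate 2 array of conflicting dye labels gave 2 of 5 (25.1%). Ignoring spot flags and leaving that array out also gave 2 of 5 (27.4%). On the single arrays 0 of 5 had 1 sign on all usable arrays, beside 10.7% of all clones, and of the 2 with 6 usable spots 0 had 1 sign on all 6, beside 4.74% of such clones. H-1 clone Gm-r1070-799 was above 0 under each of 22 alternative settings (0.03 to 0.28), and SFERH-4 clone Gm-r1021-3458 was below 0 under each of 22 (-0.08 to -0.002). SFERH-4 clone Gm-r1021-936 changed sign with print-tip loess alone. The means of SFERH-2 and DMT1 clone Gm-r1083-281 changed sign only when the replicate 2 array with the conflicting dye labels was turned, to 0.09 and 0.02. With print-tip loess these means shrank to -0.006 and -0.09.

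**Figure D4:**
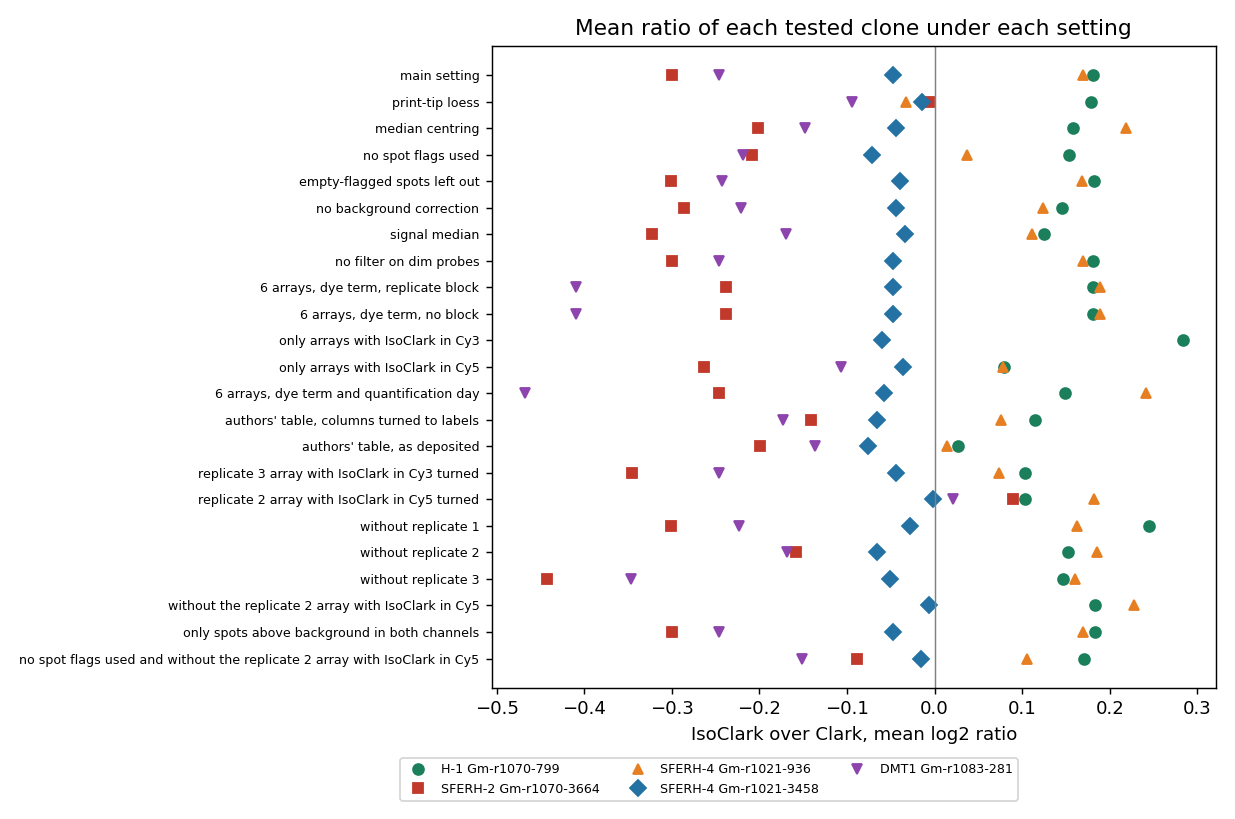
Mean log2 ratio of IsoClark over Clark (horizontal axis) of the 5 tested clones under the setting reported here and under each alternative (vertical axis), with 1 marker per clone and no marker where a setting left a clone without a value in every replicate. H-1 stays above 0 and SFERH-4 clone Gm-r1021-3458 below 0 throughout, while SFERH-2 spans -0.44 to 0.09.

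Further genes of iron use were read from a list of symbols. It comprised enzymes of tetrapyrrole synthesis and breakdown, enzymes that carry iron or heme or belong to the same antioxidant pathway, metallothionein, and 1 clone matched to a Yellow Stripe-Like protein, a family that carries metals bound to nicotianamine. Of this list 23 clones of 15 genes were tested, with the Yellow Stripe-Like clone counted as a gene, and 0 passed the adjusted threshold, beside 0% of all clones. Likewise 0 reached an unadjusted limma p of 0.05, beside 5.53%. The ratio was above 0 in 9 clones and below 0 in 14, with a median of -0.03 beside 0.003 over all clones tested. Single clones of APX1, CAT4 and CCS were not tested.

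The lowest ratio in the list was that of HO1, a heme oxygenase, which releases iron from heme, at -0.28 ± 0.24 (log2, SD, n = 3), below 0 on 3 of 4 usable arrays. GSA1, which makes the tetrapyrrole precursor aminolevulinate, had -0.21 ± 0.23, and a clone of the ascorbate peroxidase APX1, a heme enzyme that removes hydrogen peroxide, had -0.17 ± 0.13. The other tested APX1 clones had 0.11 and 0.03, so clones of that gene lay on either side of 0. The highest ratio was that of AOX3, the mitochondrial alternative oxidase with a di-iron centre, at 0.29 ± 0.26, above 0 on 4 of 4 usable arrays. Clones of MT2, a metallothionein that binds metals through cysteines, had 0.24 ± 0.16, 0.13 ± 0.20 and -0.01 ± 0.18. The Yellow Stripe-Like clone had -0.05 ± 0.16 and is named for its role after its value was seen. The adjusted limma p was 0.796 or more for each clone named here, and each 95% interval included 0.

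By the ratios on single arrays, the annotated clones of other genes that ran most alike to the members were ranked by Pearson's r over 5 or 6 shared usable arrays, as a description. For H-1 clone Gm-r1070-799 these were LOC547975 (r = 0.946) and UGT1 (r = 0.906) among 496 clones. For SFERH-2 they were GSTU30 (r = 0.999) and DREB1 (r = 0.991) among 206 clones. SFERH-4 clone Gm-r1021-936 ran most alike to CP3 (r = 0.993) and SALI5-4A (r = 0.987) among 234 clones, and SFERH-4 clone Gm-r1021-3458 to LOC548038 (r = 0.974) and CGS2 (r = 0.967) among 495. The arrays are dye pairs of the same 3 replicates, and between 0.403% and 6.41% of the compared clones had an r above 0.9. DMT1 had too few usable arrays to be ranked.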

How the data were processed

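Total RNA of soybean roots was measured on 6 two-channel cDNA arrays. Per the file headers, spot quantification by the authors used ImaGene (version 6.1.0), and they deposited the linear, unnormalized intensity of each spot in either dye (mean and median signal, local background and its SD) with a flag for its quality. A second deposited table, by the authors, holds log ratios by array that were read here as log2, and whose background correction, normalization, log base and direction are not given in the sources used here. Against the scanner values, 5 of its columns hold IsoClark over Clark and the column for replicate 3 with IsoClark in Cy3 holds the reverse. Its column medians were 0.11, 0.05, 0.08, -0.06, 0.04 and -0.28. It served as an alternative, and 0 other columns of sample values were left aside.

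Gene symbols belong to rows of that table, of which 1158 of 19200 have 1 symbol. Rows were tied to clones by clone number with a fixed shift for each clone set, chosen as the best match between the table and the scanner values. Over 97 consecutive clones around and including each member, the mean absolute correlation over the arrays was 0.556 to 0.953 at the row used. At the next best row it was 0.375 or less. The shift came from the same values, so this is not an independent check. RefSeq (assembly Glycine_max_v4.0) held 522 of the 526 genes and gave synonyms only. No coordinates or sequences are given.

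Normexp background correction used an offset of 50 on mean signal and median background. Global loess within arrays followed (limma version 3.58.1, under R version 4.3.3), and poor-flagged and blank spots had weight 0. Ratios were turned by the dye of the label field, and the arrays of a pair were averaged. A clone was tested with lmFit and eBayes against 0 when 3 or more arrays showed it above background by 2 background SD in some channel and each of the 3 replicates had a value. P-values were Benjamini-Hochberg adjusted over all 13430 clones at a threshold of 0.05. The procedure was also run on simulated independent normal noise with a common SD for all clones and with added changes. That setting lacks the differing spreads and print-block shifts of these data, so nothing is concluded from it. With 3 replicates, their number limits the precision. SFERH-4 clones were compared by an exact sign-flip test.

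Every member clone was named. Of the further iron list, the 3 highest and the 3 lowest clones by mean ratio were named. The keyword rule first written for that list matched only H-1 and DMT1 clones, because the tables hold symbols without gene names, so a list of symbols was written after the files were seen. Likeness was ranked over clones with at least 5 shared usable arrays. The members, lists and tests were chosen with earlier results of these data known. Alternatives covered normalization, background, spot flags, the dim-spot filter, dye orientation, quantification day, source of the values and leaving out replicates; 4 of them were added after the data were seen.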

Additional observations from a re-analysis of the deposited data

Results flagged for a closer look

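The log2 ratio of H-1 clone Gm-r1070-799 was -0.26 in replicate 1 where IsoClark carried Cy5, and it lay apart from the other 5 arrays, which held 0.23 to 0.37. Its gap to the nearest of them was 0.783 of the whole range, above Dixon's 95% critical value for 6 samples. That value assumes independent samples, whereas the arrays are dye pairs of the same 3 replicates, so it is only a guide here. On the other array of that replicate, with the dyes exchanged, the ratio was 0.37, and the print block of the clone had medians of 0.01 and 0.03 on these arrays. Without replicate 1 the mean was 0.24. The 5 tested clones were examined in this way, and with independent values chance would set off about 1 in 20 groups.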

How the results depend on the processing

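The number of clones past the adjusted threshold was 0 under each of 22 alternatives, with 316 to 1182 clones at an unadjusted limma p under 0.05 among the clones each tested. With print-tip loess, SFERH-4 clone Gm-r1021-936 had -0.033 and the difference between the SFERH-4 clones was -0.019. In the same setting H-1 clone Gm-r1070-799 had 0.18, SFERH-2 -0.006 and DMT1 clone Gm-r1083-281 -0.09. With the replicate 2 array with IsoClark in Cy5 turned, SFERH-2 had 0.090 and DMT1 0.021. Without that array neither had a value in every replicate, and when spot flags were ignored as well SFERH-2 had -0.09 and DMT1 -0.15. On arrays with IsoClark in Cy3 alone, SFERH-2, DMT1 and SFERH-4 clone Gm-r1021-936 had none either.

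Leaving out 1 replicate at a time, H-1 had 0.15 to 0.24, SFERH-2 -0.44 (without replicate 3) to -0.16 (without replicate 2), DMT1 -0.35 to -0.17, SFERH-4 clone Gm-r1021-936 0.16 to 0.19, SFERH-4 clone Gm-r1021-3458 -0.07 to -0.03, and the difference between the SFERH-4 clones was 0.19 to 0.25. Replicate numbers name dye pairs of the same RNA. Fits of the 6 arrays with a dye term and the replicate block gave 0.18 for H-1, -0.24 for SFERH-2, 0.19 and -0.05 for the SFERH-4 clones and -0.41 for DMT1, with adjusted limma p from 0.769 to 0.930, and the block changed no call. With quantification day added, DMT1 had -0.47 (unadjusted limma p across all clones 0.0286, adjusted 0.727). For DMT1 these fits held 4 usable arrays, and only the replicate 1 array with -0.71 carried IsoClark in Cy3. The dye effect of this clone thus came from replicate 1 alone, and the -0.41 and -0.47 lean on that array. Quantification day and replicate 1 cannot be told apart.

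The brightness percentile of a spot among all spots of its array and channel moved when spot flags were ignored, from 79.2 to 82.3 for DMT1 clone Gm-r1083-281 and from 14.4 to 27.4 for H-1 clone Gm-r1070-6948. Over all results and alternatives, 178 values kept their direction and their side of the threshold or stayed within the replicate spread, 4 changed sign and 2 moved. The kept values include the member ratios without the dim-spot filter, which could not change. The cause of these changes was not tested. The main limits are the median interval of 0.33 to either side on the log2 scale, the 1 spot per clone, and the poor marks that left 4 to 6 usable arrays for the 5 tested clones and 2 for the other 2.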
